A study of Bos taurus with 129 samples.

Results

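The genes described are the bovine WC1 family and 2 transcription factors of the cells that carry it. They are the 5 rows of the count table whose symbol starts with WC1 (WC1, WC1-8, WC1-10, WC1-12 and WC1.3), together with CD163L1, SOX13 and GATA3, which makes 8 of 32395 genes. The rule used symbols and no measured value. In the RefSeq annotation of assembly ARS-UCD2.0 all 8 symbols were found, CD163L1 carries WC1 among its other names, and the 6 WC1-family genes lie in 1 cluster on chromosome 5, in the order WC1-12, WC1-10, WC1.3, WC1, WC1-8 and CD163L1. SOX13 is on chromosome 16 and GATA3 on chromosome 13.

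WC1 proteins are transmembrane scavenger receptor cysteine-rich proteins. They are found on most of the gamma-delta T cells in the blood of cattle, where gamma-delta T cells are far more common than in people or mice, and they act as coreceptors of the gamma-delta T cell receptor and as receptors for bacteria. Different WC1 genes mark different gamma-delta subsets. SOX13 is a transcription factor of the gamma-delta lineage, and GATA3 is required for T cell development in general and directs type 2 helper T cells, so its RNA in blood is shared by gamma-delta and other T cells.

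Whole blood RNA was sequenced from 26 crossbred beef steers that had been hauled over a long distance, at enrollment (day 0) and 13, 28, 45 and 60 days later, with 1 library missing because that of animal 48 at day 13 had failed. The feed supplied Zn, Mn, Cu and Co as sulfates (INR, 11 animals), as amino acid complexes (AAC, 8 animals), or as complexes plus an oral trace mineral drench given before shipment, at enrollment and with any treatment for illness (COMBO, 7 animals). All received the same respiratory virus vaccine at day 0 and again later, and doramectin, a dewormer, at day 0. Of these, 14 were labelled as treated for bovine respiratory disease (BRD) and 12 as healthy: 4 BRD and 4 healthy in AAC, 3 and 4 in COMBO, and 7 and 4 in INR. The label belongs to the animal and is the same on all 5 days, day 0 included.

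Health and management before purchase were not known for these steers. Groups of steers were rotated between pens during the study. The AAC animals stood in pens 2 and 8 at enrollment, with 2 healthy and 2 BRD animals in each. The healthy COMBO animals stood in pen 5 and the BRD ones in pen 6, so that label and pen cannot be told apart there, and supplement and pen cannot be told apart in any group. No cells were sorted or counted in these files, and fewer gamma-delta T cells and less RNA per cell cannot be told apart in whole blood. Total counts per library ranged from 31613545 to 61692136, with a median of 44268685, and were alike in healthy (median 44268685) and BRD libraries (median 44224214). Levels are given as CPM, the count as a share of the TMM-scaled library total. CPM is not corrected for transcript length, so levels of different genes are not compared.

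All 8 genes passed the filter on low counts, together with 18937 genes in all, but only 4 of them could be followed in every library. WC1-12, WC1.3, SOX13 and GATA3 had counts in every library. WC1-12 ranged from 25.4 to 217 CPM (median 88.8) and WC1.3 from 51.9 to 561 CPM (median 167). SOX13 ranged from 22.01 to 216 CPM (median 66.7) and GATA3 from 22.4 to 123.2 CPM (median 60.4). The other 4 were low or patchy.

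WC1 had a median of 4 counts per library, a highest of 18 and 11 libraries at 0. WC1-8 was at 0 in 90 libraries, with at most 40 counts. WC1-10 was at 0 in 69 libraries and reached 501 counts, and CD163L1 was at 0 in 43 and reached 725. Of the counts assigned to the 6 WC1-family rows, 66% went to WC1.3, 32.6% to WC1-12, 0.886% to CD163L1, 0.430% to WC1-10, 0.0361% to WC1 and 0.0196% to WC1-8. In single libraries the share of WC1.3 ranged from 43% to 84.1% and that of WC1-12 from 15.5% to 57%. The family holds near-identical copies, and reads could be divided between them or passed over in a way these counts do not show. The counts of every WC1-family gene are therefore uncertain in how they split the family, and those of the 4 low genes most of all.

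In some animals WC1-10 and CD163L1 alternated between 0 and high counts. CD163L1 was at 0 in every library of 3 animals and in none of 8, and 10 animals had both a library at 0 and a library with over 100 counts. In AAC BRD animal 41, CD163L1 had 612 counts at day 0, 0 at day 13, 725 at day 28, 410 at day 45 and 384 at day 60. In INR healthy animal 30 it had 243, 281, 388, 0 and 16 counts on the same days. In animal 41 the library without a count lay between libraries with many, and in animal 30 it followed 3 such libraries and came before one with few.

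For WC1-10, 3 animals were at 0 throughout, 4 never, and 5 had both a library at 0 and one with over 100 counts. COMBO BRD animal 18 had 262 counts at day 0, 0 at day 13, 306 at day 28, 138 at day 45 and 0 at day 60. Counts were present for both genes in 45 libraries, for WC1-10 alone in 15, for CD163L1 alone in 41 and for neither in 28. A library at 0 allows up to 3 counts by counting error alone, a bound that is only approximate for these counts, which were converted from coverage. In animal 18, the libraries on either side of day 13 had 262 and 306 counts. Not every library at 0 had such neighbours, as WC1-10 was at 0 at both day 0 and day 13 in AAC BRD animal 31. What set a library to 0 was not tested.

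**Figure D1:**
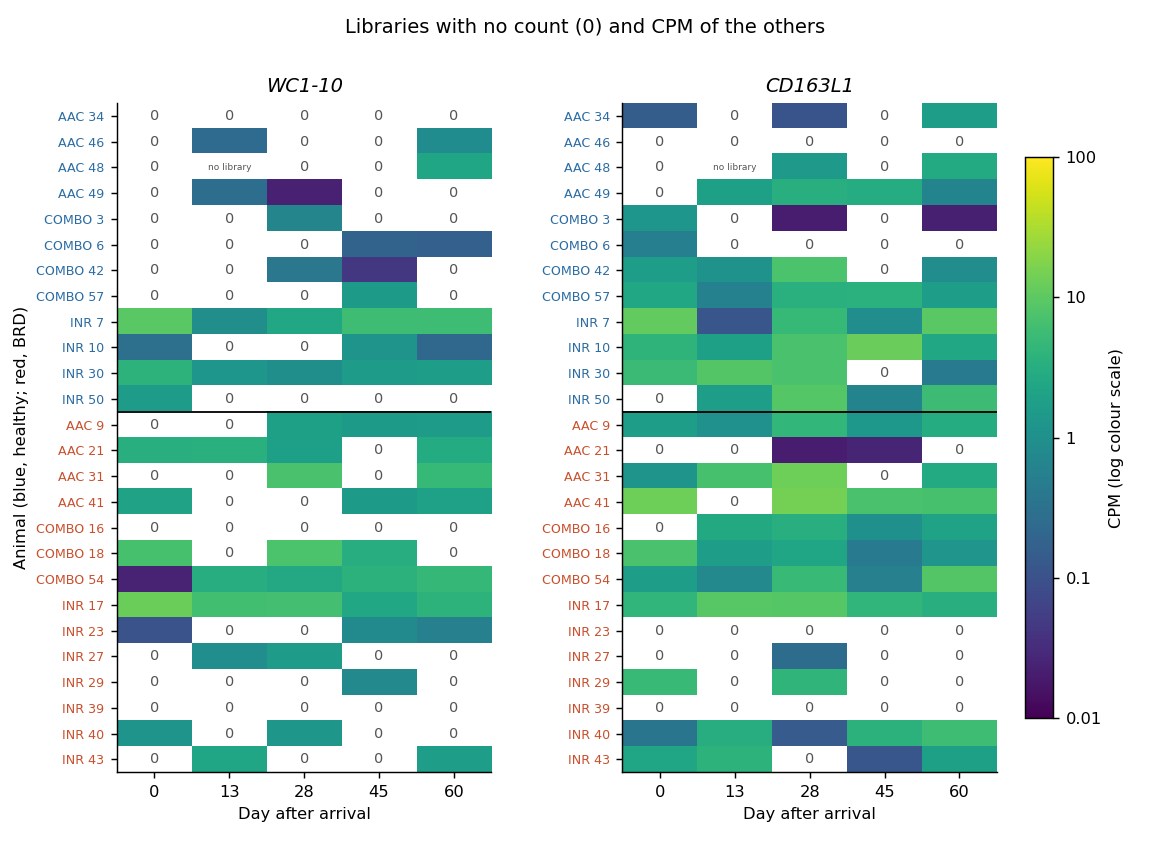
CPM of WC1-10 (left) and CD163L1 (right) in each library, by animal (rows, supplement and animal number, healthy above the line and BRD below it) and day after arrival (columns), with colour on a log scale and 0 where a library had no count. WC1-10 was at 0 in 69 and CD163L1 in 43 libraries, in some animals between days with counts.

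The first comparison asked how these genes changed over the 60 days after arrival, within animals. The 4 well measured genes had their lowest median at day 45, after WC1-12 alone had risen at day 13. At day 45, SOX13, WC1-12, WC1.3 and GATA3 had all fallen from day 0, by 0.46, 0.34, 0.28 and 0.22 on the log2 scale, and at day 60 only SOX13 and GATA3 passed the test. Changes were tested with edgeR's quasi-likelihood test with animal as a block, and adjusted p-values (FDR) below 0.10 over all 18937 genes were called.

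WC1-12 was at 47.6 to 167 CPM at day 0 (median 82.2, n = 26) and at 56.6 to 217 CPM at day 13 (median 102.8, n = 25). The range of day 13 overlapped that of day 0 almost wholly, and 16 of 25 animals were higher. Within animals WC1-12 rose by a log2 fold change of 0.31 ± 0.09 (SE, FDR = 0.00517). It was the only one of the 8 genes called at day 13, where 34.4% of all tested genes were. WC1.3, with a log2 fold change of 0.12 ± 0.09, and SOX13, with 0.00 ± 0.09, did not pass the test.

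At day 28 GATA3 was the only gene called (log2 fold change of -0.21 ± 0.07, FDR = 0.0118), with 34% of all genes called. GATA3 stood at 43.3 to 123.2 CPM at day 0 (median 66.9) and at 33.95 to 98.41 CPM at day 28 (median 59.6), and was lower in 19 of 26 animals. SOX13 lay just outside the threshold, with a log2 fold change of -0.19 ± 0.09 (FDR = 0.105).

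At day 45, 4 of the 8 genes were called, all lower, against 27.5% of all genes in either direction and a median log2 change of 0.00 over all genes. SOX13 went from 26.8 to 216 CPM at day 0 (median 72.38) to 22.01 to 118.4 CPM at day 45 (median 53.95). It was lower in 21 of 26 animals, with a log2 fold change of -0.46 ± 0.09 (FDR = 6.24e-05). WC1-12, at 27.5 to 110.8 CPM (median 69.99), was likewise lower in 21 of 26 animals (-0.34 ± 0.09, FDR = 0.00268). Every range overlapped that of day 0.

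WC1.3 was at 65.2 to 561 CPM at day 0 (median 172) and at 51.9 to 405 CPM at day 45 (median 146.5), and was lower in 19 of 26 animals (log2 fold change of -0.28 ± 0.09, FDR = 0.0144). GATA3, at 27.8 to 92.1 CPM (median 58.3), was also lower in 19 of 26 (-0.22 ± 0.07, FDR = 0.0101). Without the animal block, 3 of the 8 calls over the 4 later days were kept: WC1-12 at day 13 and SOX13 and WC1-12 at day 45.

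Between days 28 and 45, 4 of the 8 genes were called, all lower, and GATA3 was not (log2 fold change of -0.01 ± 0.07). WC1-12 fell by 0.46 on the log2 scale (SE 0.09, FDR = 4.19e-05), in 24 of 26 animals, SOX13 fell by 0.27 (FDR = 0.0235), in 23, and WC1.3 fell by 0.23 (FDR = 0.0559), in 21. CD163L1 was the fourth (log2 fold change of -1.72 ± 0.64, FDR = 0.0455), but its libraries at 0 went from 5 of 26 at day 28 to 12 of 26 at day 45. Of all tested genes, 27.7% were called in this step.

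Between days 45 and 60 WC1-12 rose again by a log2 fold change of 0.34 ± 0.09 (FDR = 0.0125), in 20 of 26 animals. It was the only one of the 8 called in this step, against 8.22% of all genes. WC1.3 (0.21 ± 0.09, FDR = 0.151) was higher in 22 of 26 animals and SOX13 (0.20 ± 0.09, FDR = 0.191) in 19, without being called. GATA3 changed by 0.03 ± 0.07. At day 60 the level of WC1-12 was 25.4 to 138 CPM (median 85.04), and its log2 difference from day 0 was 0.00 ± 0.09. SOX13 remained called at day 60 (-0.26 ± 0.09, FDR = 0.0276), as did GATA3 (-0.19 ± 0.07, FDR = 0.0254), with 30.7% of all genes called. Without animal 49, a healthy AAC animal, SOX13 at day 60 lay just past the threshold (FDR = 0.107, over 955 genes).

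**Figure D2:**
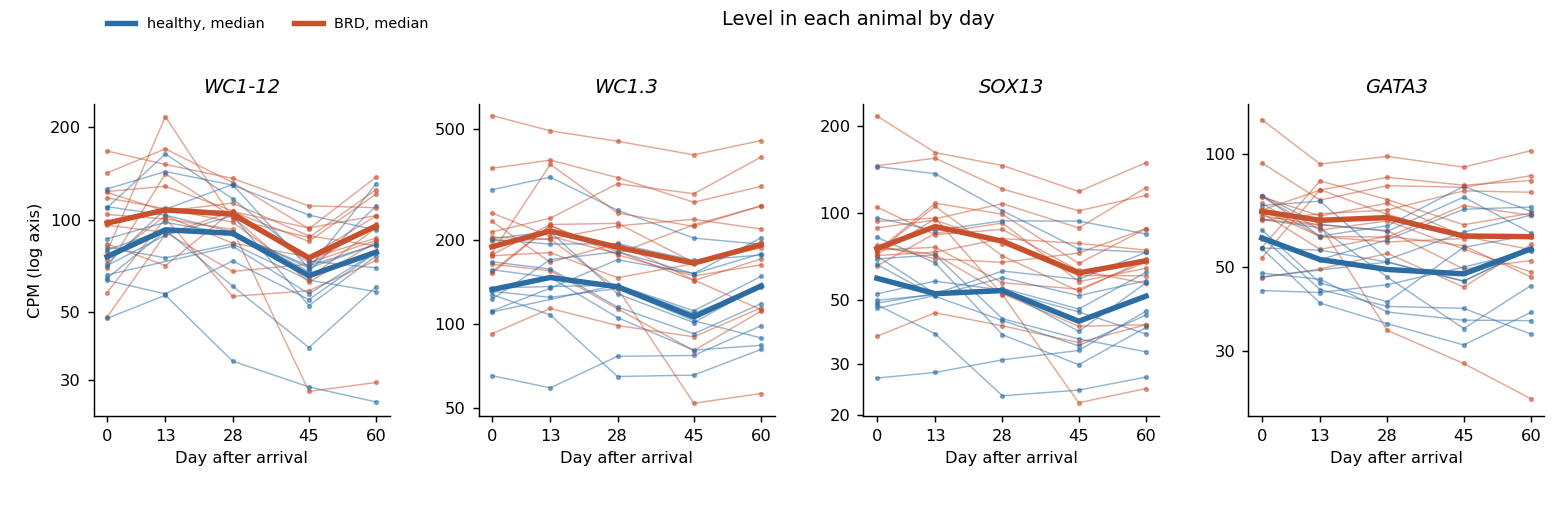
CPM (log axis) of the 4 genes with counts in every library by day after arrival, 1 thin line per animal and a thick line for the median of the 12 healthy (blue) and 14 BRD (red) animals. Both medians of WC1-12 rise to day 13 and fall to day 45, and the BRD median lies above the healthy one on every day for all 4 genes.

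The 3 constant regions of the T cell receptor gamma chain that had a row under such a symbol followed another course. Every gamma-delta T cell needs a gamma constant region for its receptor. TRGC3, TRGC4 and TRGC6 were taken as a related list after the files had been seen. No other symbol starting with TRGC or TRDC had a row, so other gamma constant regions and the delta constant region were not followed. These 3 rows need not stand for all gamma-delta T cells. At day 13 all 3 had fallen from day 0: TRGC3 was at 22.7 to 105.4 CPM at day 0 (median 43.2) and at 10.19 to 59.02 CPM at day 13 (median 27.5), and was lower in 25 of 25 animals (log2 fold change of -0.75 ± 0.12, FDR = 9.57e-07). TRGC4 fell by 0.64 (FDR = 8.18e-06) and TRGC6 fell by 0.71 (FDR = 1.63e-05).

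From day 13 to day 28 the 3 constant regions rose by log2 fold changes of 0.86 to 1.03, when none of the 8 genes was called, with 1.04% of all genes called, and 2 of the 8 had an unadjusted p below 0.05, as did 12.8% of all genes. At day 45, when WC1-12, WC1.3, SOX13 and GATA3 were lower than at day 0, TRGC3 (0.41 ± 0.12, FDR = 0.00642), TRGC4 (0.42 ± 0.11, FDR = 0.00278) and TRGC6 (0.52 ± 0.13, FDR = 0.00117) were higher. These 3 constant regions thus moved against WC1-12 at day 13 and against WC1-12, WC1.3, SOX13 and GATA3 at day 45.

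**Figure D3:**
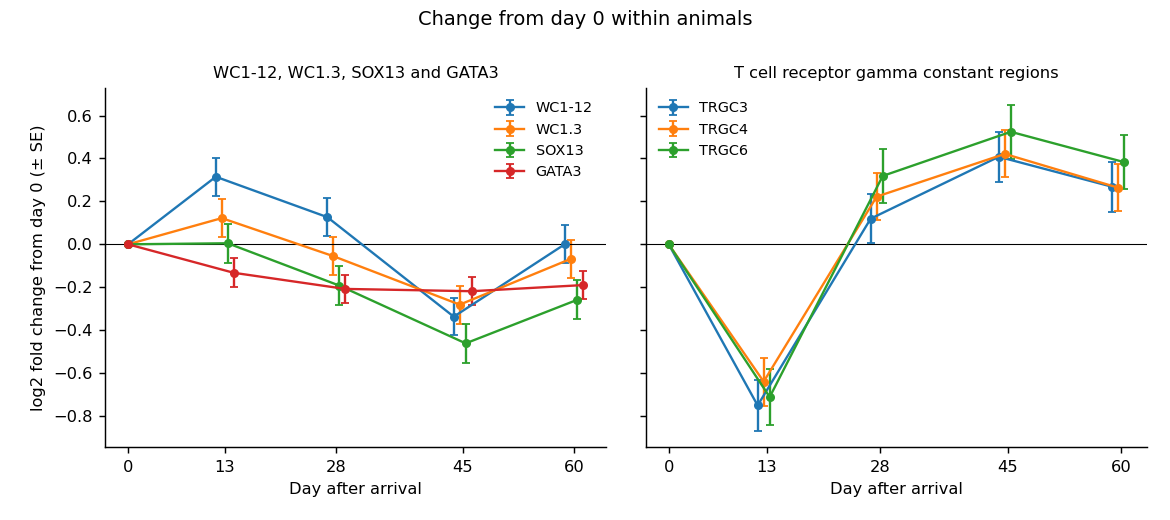
Log2 fold change from day 0 within animals (points, ± SE) at days 13, 28, 45 and 60, for WC1-12, WC1.3, SOX13 and GATA3 (left) and for 3 T cell receptor gamma constant regions (right). At day 13 WC1-12 was higher (0.31) and the constant regions lower (-0.64 to -0.75), and at day 45 the signs were the other way round.

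Markers of other cells were called with day as well. Of 7 tested erythroid markers, 7 were higher at day 13 and 6 at day 45, and their summed level went from 27.1 to 6966 CPM at day 0 (median 226) to 161 to 84760 CPM at day 13 (median 6085). Of 8 monocyte markers, 5 were lower at day 13 and 4 at day 45, with a summed level of 1764 to 11260 CPM at day 0 (median 4203) and 1176 to 5364 CPM at day 45 (median 3025). Of 20 genes of the T cell receptor complex and its proximal signalling, 7 were higher and 2 lower at day 13, and 3 higher and 2 lower at day 45, beside the 34.4% and 27.5% of all genes called in either direction on these days. The median log2 change of that list was -0.03 at day 13 and -0.05 at day 45, beside 0.01 and 0.00 over all genes. The part of these lists in the changes of the WC1 genes was not tested.

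Of 11 tested genes linked to SOX13 in type 17 gamma-delta T cells of other species, 6 were lower and 1 was higher at day 45, when 13.2% of all genes were lower and 14.2% higher. The median log2 change of the list was -0.14, beside 0.00 over all genes. Among the lower ones were ZBTB16, an innate-like lymphocyte regulator (-0.45 ± 0.10), the chemokine receptor CCR6 (-0.40 ± 0.07), and BLK (-0.28 ± 0.06), a Src-family kinase shared by B cells and gamma-delta T cells. ETV5 was the higher one (0.66 ± 0.10). Of 11 genes linked to GATA3 in type 2 cells, 4 were lower and 2 higher. CCR4, a chemokine receptor of type 2 helper T cells, was among the lower ones (-0.49 ± 0.08). As a sum this list did not fall with GATA3, at 1419 to 1712 CPM at day 0 (median 1599) and 1552 to 1804 CPM at day 45 (median 1683). The sum of 12 genes of gamma-delta development and identity had medians of 981.3 CPM at day 0 and 995.4 CPM at day 45.

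The second comparison asked whether steers treated for BRD differed from healthy ones. On single days none of the 8 genes was called, but WC1.3, SOX13 and GATA3 were higher in BRD animals on all 5 days. So were WC1-12 and WC1-10, the latter with many libraries at 0. When the days were averaged, WC1.3, SOX13 and GATA3 passed the test that allows for repeated libraries of an animal. With 1 value per animal no gene was called over all supplements, and calls among the 8 were made within AAC but not within COMBO or INR.

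WC1.3 was at 65.2 to 304 CPM in healthy animals at day 0 (median 133, n = 12) and at 92.2 to 561 CPM in BRD animals (median 189.5, n = 14). At day 60 it was at 81.1 to 204 CPM (median 137) in healthy and at 56.3 to 456 CPM (median 193) in BRD animals. The 2 labels overlapped on every day, and BRD animals were the highest on every day and, at days 45 and 60, also the lowest. The log2 difference (BRD minus healthy, averaged over supplements) was between 0.52 ± 0.24 at day 0 and 0.72 ± 0.24 at day 45, and its lowest FDR over the days was 0.524, at day 28.

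For SOX13 the log2 difference ranged from 0.45 ± 0.23 at day 0 to 0.63 ± 0.24 at day 13, and for GATA3 from 0.25 ± 0.14 at day 60 to 0.50 ± 0.14 at day 28, where its FDR was 0.352 (0.0487 over 955 genes without INR BRD animal 43, whose GATA3 was the lowest that day). By edgeR's quasi-likelihood test 0 of 8 genes were called on each day, against 0.0158%, 0%, 0.00528%, 0% and 0.00528% of all genes at days 0, 13, 28, 45 and 60. At an unadjusted p below 0.05 the counts were 3, 5, 4, 3 and 2 of the 8, where 7.11%, 3.78%, 8.63%, 4.22% and 3.64% of all genes had such a p. DESeq2 called only WC1-10 in this comparison, on 3 days, and WC1-10 was at 0 in 57.6% of the libraries of healthy and 50% of those of BRD animals.

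Averaged over the 5 days, with the correlation between libraries of an animal in the model (limma voom), WC1.3 was higher in BRD animals by a log2 difference of 0.63 ± 0.13 (FDR = 0.00611), SOX13 by 0.57 ± 0.13 (FDR = 0.0137) and GATA3 by 0.35 ± 0.09 (FDR = 0.0227). These are 3 of the 8 genes, against 0.914% of all genes. WC1-12, with a log2 difference of 0.29 ± 0.11 (FDR = 0.327), was called only when INR BRD animal 43 was left out, and TRGC3 (0.13 ± 0.14), TRGC4 (0.14 ± 0.15) and TRGC6 (0.29 ± 0.15) were not called. The correlation within animals in this model was 1 value for all genes, 0.32, whereas most of the variance of these 3 genes lay between animals.

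With 1 value per animal in place of 1 per library, a test added after seeing the data, no gene of all 18937 was called between BRD and healthy animals, although 6.4% had an unadjusted p below 0.05 by limma. The differences kept their size, at 0.63 for WC1.3 (FDR = 0.69), 0.56 for SOX13 (FDR = 0.75) and 0.35 for GATA3 (FDR = 0.688). An exact permutation of the labels of the 26 animals within supplements gave two-sided, unadjusted p-values of 0.0123, 0.0157 and 0.0121 for WC1.3, SOX13 and GATA3, of 0.0684 for WC1-12, and of 0.156 to 0.621 for the other 4, in 8 such tests. Within pens that held both labels (7 BRD and 8 healthy animals) the exact permutation p-values were 0.146, 0.19 and 0.116 for WC1.3, SOX13 and GATA3, with log2 differences of 0.65, 0.51 and 0.41.

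Within AAC, where both labels shared both pens, the mean WC1.3 of each healthy animal over its days was 75.3, 127.1, 130.9 and 157 CPM, and that of each BRD animal 198, 218, 293 and 474 CPM. Mean SOX13 was 32.97, 51.4, 52.1 and 53 CPM in healthy and 72.9, 75.6, 97.02 and 158 CPM in BRD animals. Mean GATA3 was 40.1, 47.3, 50.1 and 53.02 CPM against 70.2, 73.1, 81 and 101.9 CPM. The labels did not overlap for any of the 3, and animal 41 was the highest for each.

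Mean WC1-12 did not overlap either, with 38.5, 65.32, 70.9 and 78.2 CPM in healthy and 84.4, 89.95, 105.8 and 135 CPM in BRD animals. With 1 value per animal, 4 of the 8 genes were called within AAC, against 6.08% of all genes: WC1.3 (log2 difference of 1.23 ± 0.36, FDR = 0.07), SOX13 (1.05 ± 0.34, FDR = 0.0922), GATA3 (0.77 ± 0.19, FDR = 0.0473) and WC1-12 (0.73 ± 0.24, FDR = 0.0994). The exact permutation p was 0.0286 for each, which is the smallest that 4 against 4 animals allow, and WC1-10 (log2 difference of 2.65 ± 1.23, FDR = 0.222), with its many libraries at 0, reached the same p without being called. On single days, GATA3 was separate on all 5 days, SOX13 on days 13 to 60, and WC1.3 and WC1-12 on days 28, 45 and 60. How many of all genes separated the labels in this way was not counted. With 1 value per animal, 20.9% of all genes had an unadjusted p below 0.05 by limma within AAC. Summed monocyte markers did not overlap there either (3740 to 6589 CPM in BRD, 2688 to 3061 CPM in healthy animals). Summed neutrophil markers did (2673 to 4138 CPM against 2563 to 2913 CPM).

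In COMBO and INR the labels overlapped. Within INR the log2 difference was 0.18 ± 0.32 for WC1.3 (FDR = 0.944), 0.15 ± 0.30 for SOX13, 0.03 ± 0.17 for GATA3 and -0.05 ± 0.21 for WC1-12, with 0% of all genes called. Within COMBO it was 0.48 ± 0.39 for WC1.3 (FDR = 0.775), 0.49 ± 0.36 for SOX13 and 0.25 ± 0.21 for GATA3, with 0.00528% of all genes called. The difference between AAC and INR itself, with 1 value per animal, was 1.05 ± 0.48 for WC1.3 (FDR = 0.253), 0.90 ± 0.45 for SOX13 (FDR = 0.293), 0.74 ± 0.26 for GATA3 (FDR = 0.171) and 0.78 ± 0.32 for WC1-12 (FDR = 0.218), and did not pass the test.

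The same comparisons over libraries, with the correlation within animals in the model, called 4 of the 8 genes within AAC (16% of all genes), 0 within COMBO (1.26%) and 0 within INR (0.481%). Between AAC and INR the difference was then called for 4 of the 8 (12.1% of all genes), and for 0 of the 8 between AAC and COMBO (17%) and between COMBO and INR (0.29%). With 1 value per animal, AAC and COMBO differed for 0 of the 8 as well (6.75% of all genes).

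Other lymphocyte lists also held calls between the labels in AAC with 1 value per animal, beside 6.08% of all genes called in either direction. Of 8 B cell markers, 7 were lower in AAC BRD animals, with a median log2 difference of -1.12 beside 0.00 over all genes and a summed level of 1053 to 1732 CPM (median 1527) against 2105 to 3247 CPM (median 2762) in AAC healthy animals. Of 20 T cell receptor complex genes, 3 were higher, with a median log2 difference of 0.51 and a summed level of 2849 to 3360 CPM (median 3069) against 1829 to 2600 CPM (median 2139). Of the 3 gamma constant regions 1 was higher, and of 7 NK cell markers 1 was higher. Of 11 alpha-beta T cell markers, 2 were higher and 1 was lower. Of 12 genes of gamma-delta development and identity, 0 were higher and 2 were lower. In COMBO the B cell markers summed to 2474 to 2804 CPM in BRD and 1952 to 2031 CPM in healthy animals. None of the 8 was called there, beside 0.00528% of all genes, and label and pen cannot be told apart in COMBO. The part of these lists in the WC1 results was not tested.

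**Figure D4:**
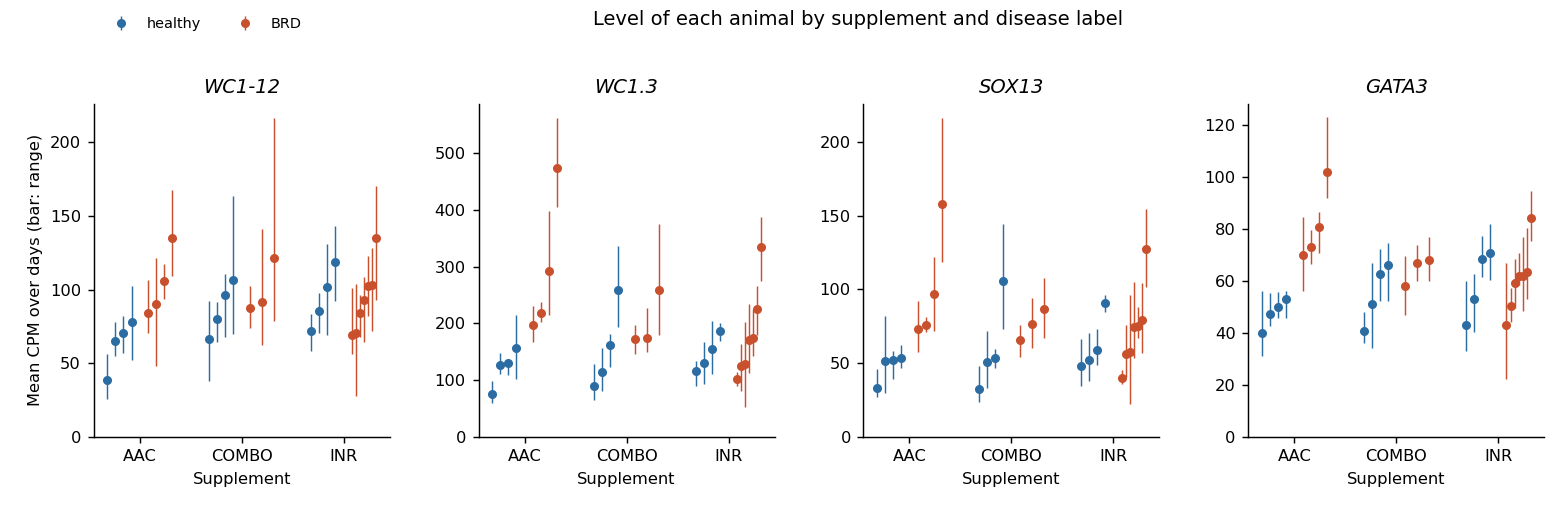
CPM of WC1-12, WC1.3, SOX13 and GATA3, 1 point per animal (mean over its days) with a bar from its lowest to its highest day, by supplement and disease label (blue, healthy; red, BRD). In AAC the 4 BRD points lie above the 4 healthy points for each gene, while in COMBO and INR the labels overlap.

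The change from day 0 did not differ detectably between BRD and healthy animals. By edgeR with animal as a block, 0 of 8 genes were called at days 13, 28, 45 or 60, as was 0% of all genes, and at an unadjusted p below 0.05 none of the 8 passed on any of these days, beside 3.38%, 4.78%, 4.94% and 4.46% of all genes. In separate contrasts within each label, over the 8 genes and 4 days, healthy animals gave 6 calls. BRD animals gave 2, WC1-12 at day 13 and SOX13 at day 45. The share of all genes called in these contrasts was not counted, and the 2 counts are not a difference between the labels in themselves.

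The supplements were compared with each other on each day. None of the 8 genes was called in any of the 15 comparisons by edgeR, where the share of all genes called was 0.565%, 0.929% and 0.0317% for AAC minus COMBO at days 0, 13 and 28, 0.0422% and 0.0106% for AAC minus INR at days 13 and 28, 0.00528% for COMBO minus INR at day 60, and 0% in the others, and in no single comparison did more than 2 of the 8 have an unadjusted p below 0.05 (2 for AAC minus COMBO at day 13, where 13.4% of all genes did). DESeq2 called WC1-10 alone, in 6 of the 15. WC1-12 at day 13 had the lowest unadjusted p, 0.00689 (log2 difference of -0.64 ± 0.23, AAC minus COMBO, FDR = 0.2), and was called without AAC BRD animal 41 by the same test over 955 genes. Averaged over days by limma voom, none of the 8 was called, against 0.919% (AAC minus COMBO), 0.407% (COMBO minus INR) and 1.11% (AAC minus INR) of all genes, and none had an unadjusted p below 0.05, beside 9.07%, 5.65% and 9.51% of all genes.

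WC1.3 differed by 0.12 on the log2 scale between AAC and COMBO (95% interval -0.22 to 0.45) and by 0.24 between AAC and INR (-0.07 to 0.55). GATA3 differed by 0.07 (-0.15 to 0.28) and 0.09 (-0.11 to 0.28) in the same comparisons. These intervals rest on the shared correlation of 0.32 and are too narrow where more of the variance lies between animals. For WC1.3 between BRD and healthy animals in AAC, the SE was 0.24 in that model and 0.36 with 1 value per animal.

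Animals differed more than days for WC1-12, WC1.3, SOX13 and GATA3. Differences between days held 17.15% of the variance of log2 CPM of WC1-12 and 8.455% of that of SOX13. For WC1.3 and GATA3 they held 4.574% and 4.384%, beside a median of 5.655% over all tested genes. After day means were removed, 82.7% of the variance of log2 CPM of WC1.3 lay between animals, 79.4% of that of SOX13, 73.2% of that of GATA3 and 65.8% of that of WC1-12, beside a median of 46.42% over all tested genes. WC1.3 exceeded 95.8% of all genes in this share and SOX13 94.1%. The share was 60.0% for CD163L1, 50.1% for WC1-10, 40.1% for WC1-8 and 36.5% for WC1, which rest on low counts. These shares are descriptions with no test.

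AAC BRD animal 41 was the highest of all animals on each of the 5 days for WC1.3, SOX13 and GATA3. Its WC1.3 was 561, 495, 454, 405 and 456 CPM by day, and its SOX13 216, 161, 146, 118.4 and 149 CPM. The lowest WC1.3 came from AAC healthy animal 46 at days 0 and 13, from COMBO healthy animal 6 at day 28 and from INR BRD animal 43 at days 45 and 60, at 51.9 and 56.3 CPM. The highest animal exceeded the lowest 6.36-fold for WC1.3, 5.02-fold for SOX13, 3.62-fold for WC1-12 and 2.59-fold for GATA3, by the mean of log2 CPM over days.

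WC1.3 and SOX13 rose and fell together across libraries. Their log2 CPM had a Pearson r of 0.950 over all libraries, 0.959 over the means of 26 animals and 0.931 after the mean of each animal was removed. For WC1.3 and GATA3 the values were 0.797, 0.850 and 0.660, and for WC1.3 and WC1-12 0.671, 0.633 and 0.831. These are descriptions over libraries that share animals, days, depth and scaling, with no test.

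With the gamma constant regions the sign depended on the level of the comparison. WC1.3 and TRGC6 had an r of 0.632 over animal means and -0.269 within animals, and WC1-12 and TRGC3 had 0.511 and -0.390. Animals with higher WC1.3 or WC1-12 thus tended to have higher levels of these gamma constant regions, while within an animal the days tended the other way.

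**Figure D5:**
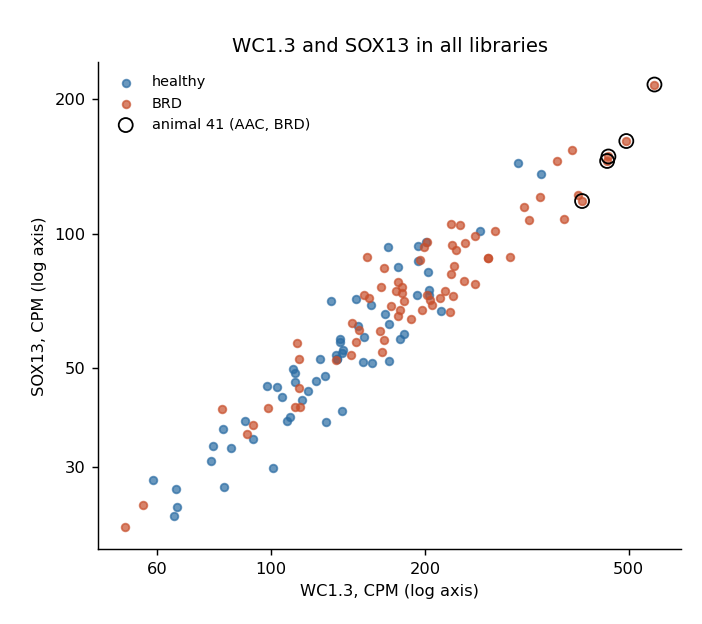
CPM of SOX13 against CPM of WC1.3 (log axes), 1 point per library (blue, healthy; red, BRD), with the 5 libraries of AAC BRD animal 41 circled. The points lie along 1 line (Pearson r of 0.950 on the log2 scale), and animal 41 holds its upper end.

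The genes of most similar pattern, by Pearson r of log2 CPM over all libraries among genes with a mean of at least 1 CPM, were SOX13 (0.950), LOC515828 (0.898), CXCL12 (0.865), LAMA4 (0.856) and LOC615640 (0.855) for WC1.3. For SOX13 they were WC1.3 (0.950), LOC515828 (0.945), CXCL12 (0.893), BLK (0.881) and ZNF462 (0.878). CXCL12 encodes a chemokine and LAMA4 a laminin chain.

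For WC1-12 the most similar were ZAP70, a kinase of T cell receptor signalling (0.868), LOC112441618 (0.811), LOC112448155 (0.783), CPNE7 (0.782) and PLCG1, a phospholipase downstream of the receptor (0.766). For GATA3 they were CD247, the zeta chain of the T cell receptor complex (0.888), LOC101908015 (0.882), LOC515828 (0.854), CCR4 (0.845) and LOC107131296 (0.841).

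For WC1, at a median of 4 counts, they were BLK (0.57), SOX13 (0.524), SLC16A10 (0.510), ZNF462 (0.509) and LAMA4 (0.504), of which all but SLC16A10 are named above for WC1.3 or SOX13. WC1-10, WC1-8 and CD163L1 had no gene of similar pattern above an r of 0.482. Their first genes were CSRNP1 (0.402), HELB (0.482) and VRK3 (0.444).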

How the data were processed

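The deposited table holds counts per gene, without normalization. Per the labels, the authors used Trimmomatic 0.39 for trimming, HISAT2 for alignment (build ARS-UCD1.3) and StringTie 2.2.0 for assembly, and took counts from prepDE, which converts coverage to counts at a read length of 150 bases, so counts are not tallies of reads. The HISAT2 version differs between the sources used here. The treatment of reads that match several WC1 copies is not given in the sources used here.

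The 8 genes and the lists were chosen with earlier results of these data known. In R 4.3.3 with edgeR 4.0.16, 18937 genes passed filterByExpr over the 30 combinations of supplement, label and day. Counts were scaled by TMM, with a common dispersion (biological coefficient of variation 27.8% with animal as a block, 39% without), quasi-likelihood tests, Benjamini-Hochberg adjustment over all tested genes and a threshold of 0.10. Contrasts weighted supplements and labels equally. Differences averaged over days used limma 3.58.1 (voom and duplicateCorrelation). Log2 CPM had a prior count of 2. Pairing comes from the same animal on each day: deviations from the 30 group means had a median correlation of 0.359 over pairs of libraries of an animal (above 0.1 in 255 of 256). Replicates are separate animals. A count of 0 allows up to 3 counts, for counting error alone. That bound is for tallies of reads and is only approximate for these converted counts.

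Fits with animals as the unit or within 1 supplement averaged over days were added after seeing the data. Alternatives were RLE factors, other filters (26992 or 13695 genes), an FDR of 0.05, a trended dispersion, DESeq2 1.42.0, voom, pen as a term, no replicate block, subsets of animals, no day 60 library of animal 40 (low RNA integrity) and each animal left out. The last used 955 genes for edgeR, spread over the range of levels, with the dispersion of all animals. The block, by-day and averaged fits were tested on simulated data, the alternatives were not. Genes named besides the 8 are the 5 most similar to each and those of smallest p in the gene lists. No other columns were present. Python 3.11.15 (matplotlib 3.10.9) made the figures.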

Additional observations from a re-analysis of the deposited data

Results flagged for a closer look

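Among WC1-12, WC1.3, SOX13 and GATA3, 1 animal stood apart from the others of its supplement, label and day (Dixon's test on log2 CPM at 95%) in 11 of 96 groups of 4 to 7 animals, where chance flags about 1 in 20 groups. The groups repeat the same animals over days and over genes that rise and fall together, so they are not independent. The 11 flags therefore cannot be read as an excess over that rate. AAC BRD animal 41 was high for WC1.3 at day 0 (561.3 CPM), for SOX13 at day 0 (216 CPM) and for WC1-12 at day 28 (136.2 CPM). AAC healthy animal 49 was low for WC1-12 at day 45 (28.41 CPM) and day 60 (25.37 CPM) and for GATA3 at day 60 (37.91 CPM). INR BRD animal 43 was low for WC1-12 at day 45 (27.46 CPM) and day 60 (29.38 CPM). WC1-12 was also low in COMBO healthy animal 6 at day 45 (38.2 CPM), WC1.3 was low in AAC healthy animal 46 at day 28 (76.53 CPM), and SOX13 was high in INR healthy animal 50 at day 13 (86.74 CPM). The 4 genes with few counts or many libraries at 0 were flagged in 20 further groups and are not listed.

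The difference between BRD and healthy animals was larger in AAC than in INR by limma voom with the correlation within animals, by 0.74 for GATA3, 0.908 for SOX13, 0.789 for WC1-12 and 1.06 for WC1.3 on the log2 scale (4 of the 8 genes, and 12.1% of all genes). With 1 value per animal none of the 4 differences passed, as given above.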

How the results depend on the processing

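Over all settings other than leaving out an animal, 257 of 289 tests kept their direction and their side of the threshold. They cover 26 results for WC1-12, WC1.3, SOX13 and GATA3, against day 0 where called and between BRD and healthy animals (WC1-12 not in the latter), and neither the low genes nor the supplements. Most are differences by day between BRD and healthy animals. None of those was called, and they counted as kept when they stayed uncalled. Each of the 3 calls averaged over days kept its side in 8 of 13 settings. The calls against day 0 kept theirs in 7 of 11 (SOX13 at day 60) to 11 of 11 (SOX13 at day 45). Of the 8 calls against day 0, DESeq2 gave 13 (adding WC1-8 on 2 days, CD163L1 on 2 and SOX13 at day 28), BRD cattle alone 2, and the fit with no replicate block 3. Between BRD and healthy animals by day, where none was called, DESeq2 called 3 (WC1-10) and AAC cattle alone gave 1 (GATA3 at day 28). DESeq2 called 6 between supplements (WC1-10), where none was called. Of the 3 calls averaged over days, 0 were left with animals as the unit, 0 in INR or COMBO cattle alone, and 0 in either with animals as the unit. In the fit with the replicate block on changes from day 0, which subtracts the day 0 difference, GATA3 at day 60 turned to -0.01335 between BRD and healthy animals, and that fit called none. The cause of the other changes was not tested. With each animal left out, the counts were 7 to 10 against day 0 (7 without animal 49), 0 to 1 between BRD and healthy animals by day (1 without animal 43), 0 to 1 between supplements (1 without animal 41), 0 for the change from day 0, and 3 to 4 averaged over days. At a median of 4 counts, WC1 had SEs of 0.29 to 0.31 for log2 changes from day 0, against 0.07 to 0.09 for WC1-12, WC1.3, SOX13 and GATA3.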

Other observations

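Of the 22 genes that the RefSeq annotation of ARS-UCD2.0 places between WC1-12 and CD163L1, both included, 8 others were found in the count table. LOC786796 had a median of 229 counts (5.23 CPM), with an r of 0.764 with WC1.3 over all libraries, and the others had medians of at most 46 counts. Their symbols do not start with WC1, and they are not among the 8 genes.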
